A study of Mus musculus with 3 samples.

Results

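The variable segments of the αβ T cell receptor were followed in single-cell RNA-Seq of subcutaneous tumors of B16-F10, a melanoma line of C57BL/6 mice. Members were the genes whose symbol begins with Trav (α chain) or Trbv (β chain) and that had at least 1 unique molecular identifier (UMI, the tag of 1 RNA molecule). They numbered 70 of 163 listed segments, among 32285 genes in all: 49 of 128 Trav and 21 of 35 Trbv segments. One library was labelled shCtrl, from tumors with a control shRNA, and 2 libraries were labelled shMib2, replicates 1 and 2, each from tumors with its own shRNA against Mib2. Every library pooled the tumors of 3 C57BL/6J mice aged 6 to 8 weeks, with no other treatment labelled, so single mice cannot be told apart within a library. The study used these libraries to ask how lower MIB2, an E3 ubiquitin ligase, affects immunity against the tumor.

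A T cell joins 1 V segment to 1 J segment for its α chain, and a V, a D and a J segment for its β chain, and fuses each to a constant region (Trac, Trbc1 or Trbc2). The daughters of a clone share its pair of V segments, though other clones may carry the same pair. An expanded clone would raise the share of its V segments in a tumor, but uneven use of V segments does not by itself show a clone. Invariant T cells use nearly fixed α chains: NKT cells use Trav11 or its copy Trav11d with Trbv13-2, Trbv29 or Trbv1, and MAIT cells use Trav1.

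T barcodes were those with at least 200 genes, at most 20% mitochondrial UMIs and UMIs of at least 2 of the genes Cd3e, Cd3d, Cd3g, Trac, Trbc1 and Trbc2. There were 104 of 8817 barcodes that passed the filter in the library labelled shCtrl, 696 of 8568 in shMib2 replicate 1 and 1049 of 7283 in shMib2 replicate 2, with median depths of 1663, 1819.5 and 2844 UMIs. They were split into CD8 barcodes (Cd8a or Cd8b1; 32, 222 and 365), CD4 barcodes (Cd4 or Foxp3; 9, 48 and 84), barcodes with neither (63, 417 and 586) and barcodes with both (0, 9 and 14), in that order of libraries. NK cell genes (Ncr1, Klra8, Klra4 or Klre1) were found in 16, 134 and 297 T barcodes, or 15.4%, 19.3% and 28.3%, and at least 20 UMIs of the melanoma genes Pmel, Dct, Mlana and Tyrp1 in 16, 86 and 82. Libraries shared 20 to 30 cell barcodes in pairs, of which 0 were T barcodes in both libraries of the pair. Mib2, the gene targeted, was at 2.49, 3.21 and 2.70 UMIs per 1000000 UMIs (CPM) in barcodes with at least 20 melanoma UMIs, so that neither library labelled shMib2 was below the library labelled shCtrl, and directions below are those between labels.

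Sequences of the segments bear on what a count can show: many Trav segments lie on chromosome 14 in near-identical copies, and Trbv segments on chromosome 6 do not. The V exons of the 3 Trav16 copies are printed because Trav16n was the Trav segment found in the most T barcodes. They run 5′ to 3′ on the plus strand of GRCm38 (mm10), from the GENCODE vM21 transcripts, as the last 300 bases of exon 2: Trav16n at chr14:53351322-53351621, Trav16 at chr14:53743406-53743705 and Trav16d-dv11 at chr14:53047522-53047821. Capitals mark the 6 positions at which the copies differ.
Trav16n: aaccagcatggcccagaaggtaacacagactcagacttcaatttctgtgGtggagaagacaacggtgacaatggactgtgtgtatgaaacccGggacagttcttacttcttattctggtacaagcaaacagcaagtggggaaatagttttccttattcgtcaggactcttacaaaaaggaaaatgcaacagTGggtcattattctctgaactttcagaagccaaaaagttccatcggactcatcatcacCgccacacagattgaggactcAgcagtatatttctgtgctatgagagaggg
Trav16: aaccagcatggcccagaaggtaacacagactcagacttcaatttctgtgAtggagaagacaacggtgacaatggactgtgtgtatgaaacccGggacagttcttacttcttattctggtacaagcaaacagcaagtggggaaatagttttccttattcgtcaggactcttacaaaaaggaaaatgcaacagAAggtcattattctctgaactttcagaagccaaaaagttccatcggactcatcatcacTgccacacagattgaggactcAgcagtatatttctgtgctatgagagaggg
Trav16d-dv11: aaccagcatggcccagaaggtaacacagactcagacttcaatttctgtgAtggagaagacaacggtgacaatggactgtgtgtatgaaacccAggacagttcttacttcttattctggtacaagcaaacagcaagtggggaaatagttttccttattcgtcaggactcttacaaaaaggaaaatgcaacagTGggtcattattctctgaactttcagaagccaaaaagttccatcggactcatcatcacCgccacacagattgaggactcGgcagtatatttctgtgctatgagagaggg
Trav16n differed from Trav16 at 4 of 300 bases and from Trav16d-dv11 at 3, so that within this stretch only reads over these bases tell the copies apart. In 3 libraries, Trav16n had 21 UMIs in T barcodes, Trav16 had 5 and Trav16d-dv11 had 1.

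Likeness between segments was measured as the share of a transcript's 60-base windows that also occur in another Trav or Trbv transcript. No Trbv segment shared any window, and 21 of 35 had a UMI. Among Trav segments, 7 of 11 without a shared window had a UMI, 28 of 48 with fewer than 50% shared, 14 of 35 with 50% to under 100% shared, and 0 of 34 with all windows shared. Of the last group, 30 are annotated as functional. Trav11 and Trav11d, the NKT cell segments, had 0 UMIs. By annotation, 47 of 108 functional Trav and 20 of 22 functional Trbv segments had a UMI, against 2 of 20 and 1 of 13 pseudogenes. The copies named d had UMIs for 6 of 39 segments, the copies named n for 9 of 34 and the other Trav segments for 34 of 55. How the counting treated reads that match 2 copies was not tested here, and a copy at 0 is not shown to be unused.

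**Figure D1:**
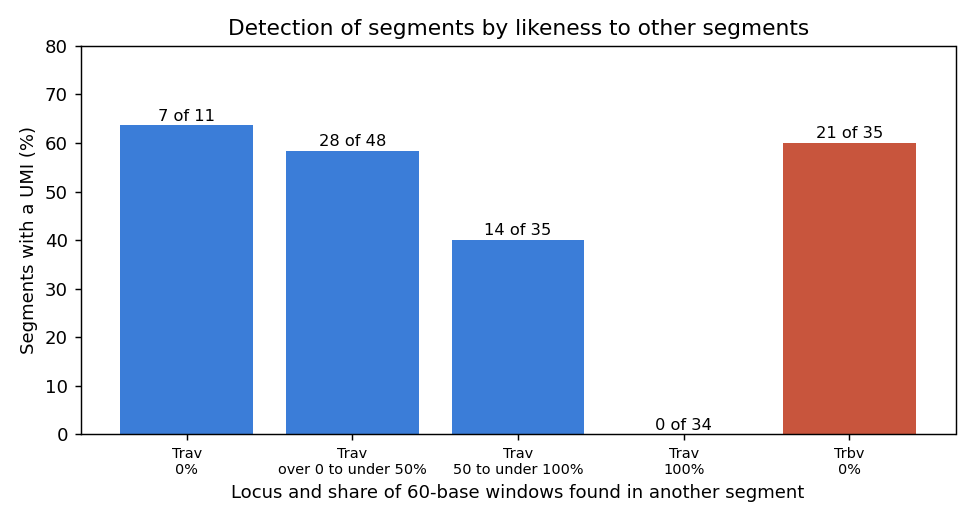
Percent of segments with at least 1 UMI in any barcode, with the number of segments above each bar, by locus and by the share of a segment's 60-base windows found in another segment. Trav bars (blue) run from 63.6% without a shared window to 0 of 34 with all windows shared, and the Trbv bar (red), without shared windows stands at 21 of 35.

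In T barcodes, 69 segments were seen with 255 UMIs: 6 segments with 6 UMIs in the library labelled shCtrl, 27 with 58 in shMib2 replicate 1 and 62 with 191 in shMib2 replicate 2. No segment was found in T barcodes of all 3 libraries, 26 were found in 2 and 43 in 1. With 6 UMIs in the library labelled shCtrl, at most 6 segments could have been found in all 3. The same count over all genes is not given here, so different use between libraries is not shown. Counts per segment were low, with 20 segments at 1 UMI, 37 at 2 to 5 and 12 at 6 or more.

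Segments were found in a minority of T barcodes, and most often in shMib2 replicate 2. The share with at least 1 segment was 6 of 104 T barcodes (5.77%, 95% Wilson interval 2.67 to 12.0) in the library labelled shCtrl, 46 of 696 (6.61%, 4.99 to 8.70) in shMib2 replicate 1 and 154 of 1049 (14.7%, 12.7 to 17.0) in shMib2 replicate 2. The intervals of shCtrl and shMib2 replicate 1 overlapped, and that of shMib2 replicate 2 lay above both; they cover counting error only. The mean ratio of both libraries labelled shMib2 to shCtrl was 1.85 ± 0.989 (SD, n = 2), from single ratios of 1.15 and 2.54. No test was run on shares, because an exact permutation of 1 library against 2 cannot give a p under 0.33. The library with the highest share was also the deepest, at a median of 2844 UMIs per T barcode. When T barcodes of at least 1000 UMIs were thinned to that number, which left out 14, 102 and 21, the shares were 2 of 90 (2.22%), 20 of 594 (3.37%) and 56 of 1028 (5.45%), with overlapping intervals from shCtrl to shMib2 replicate 2 (0.612 to 7.74 and 4.22 to 7.01).

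By locus, Trav segments were in 4, 30 and 97 T barcodes (3.85%, 4.31% and 9.25%) and Trbv segments in 2, 17 and 63 (1.92%, 2.44% and 6.01%). After thinning, Trav segments were in 0 of 90 (a count that allows up to 3.33%), 11 of 594 (1.85%) and 38 of 1028 (3.70%), and Trbv segments in 2 (2.22%), 9 (1.52%) and 20 (1.95%). For Trbv the mean ratio to shCtrl was 0.779 ± 0.137 (SD, n = 2) when thinned, against single ratios of 1.27 and 3.12 as deposited. The thinned value rests on 2 barcodes of the library labelled shCtrl, whose interval (0.612 to 7.74) held both other shares, and over both loci the thinned ratio was 1.98 ± 0.662 (SD, n = 2).

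Receptor RNA itself was more often seen through its constant regions. Trac was in 46.2%, 53.3% and 65.4% of T barcodes and Trbc1 or Trbc2 in 89.4%, 92.0% and 94.9%, although these genes also chose the barcodes. Trav segments gave 3.92, 4.81 and 5.72 UMIs per 100 UMIs of Trac, and Trbv segments gave 0.431, 0.500 and 0.958 per 100 of Trbc1 and Trbc2, with 95% exact intervals of 0.0520 to 1.57, 0.291 to 0.802 and 0.746 to 1.21. The 74 listed J segments (Traj and Trbj) had 0, 2 and 0 UMIs in T barcodes. The labels name a V(D)J kit, a chemistry that places the barcode at the 5′ end of the transcript, and which end was read was not tested.

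**Figure D2:**
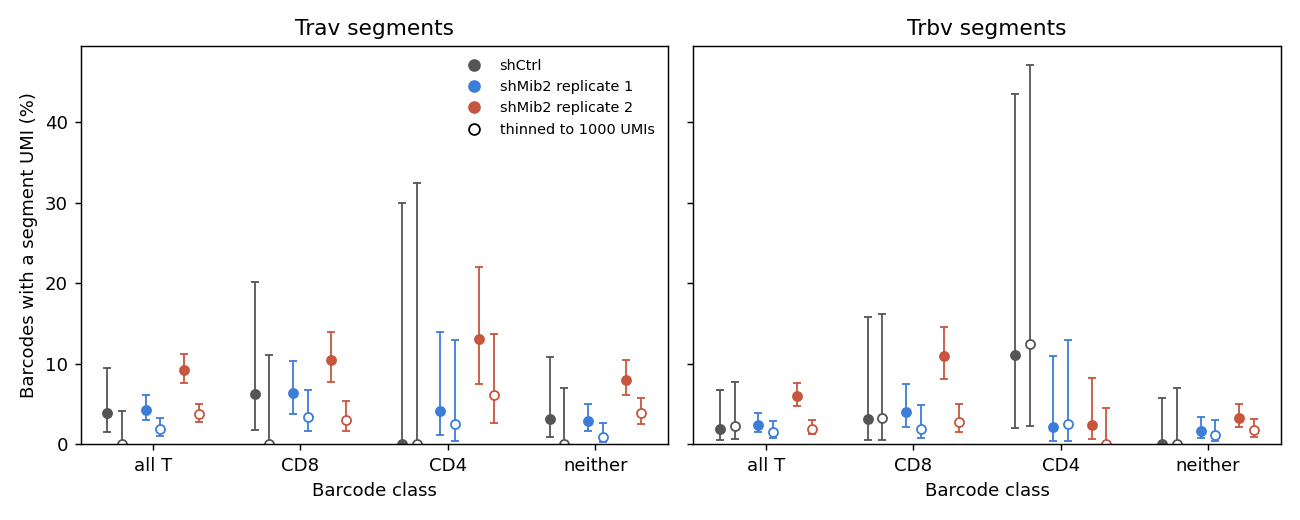
Percent of barcodes with at least 1 UMI of a Trav (left) or Trbv (right) segment, by barcode class and library, as deposited (filled) and with barcodes thinned to 1000 UMIs (open); bars are 95% Wilson intervals. In shMib2 replicate 2, Trbv stood at 11.0% of CD8 and 3.24% of barcodes with neither as deposited, and at 2.76% and 1.75% when thinned.

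CD8 barcodes carried segments more often than barcodes with neither coreceptor in each library. Segments of either locus were in 3 of 32 CD8 barcodes (9.38%) in the library labelled shCtrl, 22 of 222 (9.91%) in shMib2 replicate 1 and 74 of 365 (20.3%) in shMib2 replicate 2. In barcodes with neither they were in 2 of 63 (3.17%), 19 of 417 (4.56%) and 64 of 586 (10.9%), and in CD4 barcodes in 1 of 9 (11.1%), 3 of 48 (6.25%) and 13 of 84 (15.5%). The share was higher in CD8 barcodes than in those with neither in 3 of 3 libraries, and 3 pairs cannot give an exact permutation p under 0.25. CD8 barcodes were deeper (medians of 2288.5, 2662.5 and 3827 UMIs against 1464, 1482 and 2444.5), and at 1000 UMIs the shares were 3.23%, 5.29% and 5.52% against 0 of 51 (up to 5.88%), 2.08% and 5.43%. Barcodes with neither also held more NK marked barcodes (22.2%, 24.2% and 35.7%) than CD8 barcodes (6.25%, 14.4% and 21.9%). In shMib2 replicate 2, segments were in 11 of 209 NK marked barcodes with neither (5.26%) and in 53 of 377 unmarked ones (14.1%), whereas among CD8 barcodes of that library they were in 21 of 80 marked (26.2%) and 53 of 285 unmarked ones (18.6%). The part of depth and of NK cells in the class difference was not tested.

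The intervals of the shares of CD8 and of CD4 barcodes with a Trbv segment overlapped in each library. In shMib2 replicate 2 these segments were in 40 of 365 CD8 barcodes (11.0%, interval 8.15 to 14.6) and 2 of 84 CD4 barcodes (2.38%, 0.655 to 8.27). Thinned to 1000 UMIs they were in 10 of 362 CD8 (2.76%, 1.51 to 5.01) and 0 of 81 CD4 barcodes (up to 3.70%). As deposited, Trav segments were in 10.4% of the CD8 and 13.1% of the CD4 barcodes of that library. In shMib2 replicate 1, Trbv segments were in 9 of 222 CD8 (4.05%) and 1 of 48 CD4 barcodes (2.08%). In the library labelled shCtrl the order was the opposite, at 1 of 32 CD8 (3.12%) and 1 of 9 CD4 barcodes (11.1%).

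The segments were then tested on sums of UMIs per library, in fits over all genes. Between the libraries labelled shMib2 and shCtrl, 2 segments passed the filter on low counts, Trav16n and Trav4-4-dv10, both with 0 UMIs in T barcodes of the library labelled shCtrl. Both passed the filter only through the libraries labelled shMib2, so their direction was set in advance and is no result of the test. Neither passed the quasi-likelihood test of edgeR after Benjamini-Hochberg adjustment (adjusted p = 0.82 and 0.81), and 0 had an unadjusted p under 0.05, also by DESeq2. Over all 11862 genes tested, 0.295% were higher and 0.0169% lower in the libraries labelled shMib2. In T barcodes, fewer cells with a segment and less of its RNA per cell cannot be told apart in such sums. Between classes, in 1 fit of 3 libraries and 3 classes with the library as a block, 0 segments passed the filter, so that none could be called. With no filter, 68 segments were tested and 0 were called, with 1 at an unadjusted p under 0.05 between CD8 and CD4 barcodes, 1 between barcodes with neither and CD4 barcodes, and 0 between barcodes with neither and CD8 barcodes.

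Trav16n (ENSMUSG00000076822) was the Trav segment found in the most T barcodes, and nearly all were in 1 library. It was in 0 of 104 T barcodes of the library labelled shCtrl (a count that allows up to 2.88%), 1 of 696 in shMib2 replicate 1 (0.144%, interval 0.0254 to 0.809) and 18 of 1049 in shMib2 replicate 2 (1.72%, 1.09 to 2.70), with 0, 1 and 20 UMIs. The intervals of shMib2 replicates 1 and 2, both with an shRNA against Mib2, did not overlap, but Trav16n was picked by these same counts. These intervals cover counting error only and are no test of a difference between libraries. It made up 18 of the 97 T barcodes with any Trav segment in shMib2 replicate 2 (18.6%, 12.1 to 27.4) and 1 of 30 in shMib2 replicate 1 (3.33%, 0.591 to 16.7), intervals that overlapped. The 18 barcodes were 7 CD8, 3 CD4 and 8 with neither, or 1.92%, 3.57% and 1.37% of these classes. Trac was in 14 of the 18 (77.8%, against 65.2% of the other T barcodes), Trbc1 in 10 (55.6% against 54.0%) and Trbc2 in 14 (77.8% against 87.1%). Trdc, the δ chain constant gene, was in 0 (10.4% of the others) and Ncr1 in 0 (11.0%). A count of 0 allows up to 3 of the 18, a share above that of the others for both genes, so that neither is shown to be absent. Thinned to 1000 UMIs per barcode its share was 0.778%, and 0.191% of T barcodes had at least 2 UMIs of it. Trav16, its copy, was in 0, 3 and 2 T barcodes.

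The other Trav segments were thinly spread. Trav13-1 was in 0, 5 and 4 T barcodes, with 0, 7 and 5 UMIs, and was the most frequent Trav segment of shMib2 replicate 1, at 5 of its 30 assigned barcodes (16.7%). Trav12-2 was in 0, 0 and 6, Trav13-2 in 0, 0 and 5, Trav14n-3 in 0, 2 and 3, and Trav5-4 in 0, 3 and 1; none of these was seen in the library labelled shCtrl. The 4 Trav UMIs of the library labelled shCtrl fell on 4 segments, Trav15-2-dv6-2, Trav21-dv12, Trav15d-1-dv6d-1 and Trav17, each 25.0% of its 4 barcodes, which gave them the first 4 ranks by mean share. Trav15-2-dv6-2 was in 2 further T barcodes and Trav21-dv12 in 1, both in shMib2 replicate 2, and Trav15d-1-dv6d-1 and Trav17 in none. Trav1, the MAIT cell segment, was in 2 T barcodes of shMib2 replicate 2 (1 CD8 and 1 with neither) and in none of the other two libraries.

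The V exons of Trbv2, Trbv12-2 and Trbv19 are printed because Trbv2 and Trbv12-2 were the β chain segments found in the most T barcodes and Trbv19 was the one found beside Trbv12-2 in 2 barcodes. They lie at chr6:41047701-41047995, chr6:41119072-41119364 and chr6:41178749-41179048 (exon 2, plus strand, GRCm38). Capitals mark the last in-frame TGT codon, which encodes the conserved cysteine where the antigen-binding loop CDR3 begins.
Trbv2: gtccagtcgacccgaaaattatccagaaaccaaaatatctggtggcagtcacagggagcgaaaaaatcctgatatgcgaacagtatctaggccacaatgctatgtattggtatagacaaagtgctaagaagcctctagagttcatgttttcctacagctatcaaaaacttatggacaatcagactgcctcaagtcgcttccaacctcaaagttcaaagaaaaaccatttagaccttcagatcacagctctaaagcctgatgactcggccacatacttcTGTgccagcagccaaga
Trbv12-2: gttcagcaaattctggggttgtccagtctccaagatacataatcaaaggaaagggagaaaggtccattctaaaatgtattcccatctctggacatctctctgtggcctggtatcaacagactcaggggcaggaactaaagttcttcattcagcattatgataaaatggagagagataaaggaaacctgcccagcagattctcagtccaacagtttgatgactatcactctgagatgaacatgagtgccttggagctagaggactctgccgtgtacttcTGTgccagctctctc
Trbv19: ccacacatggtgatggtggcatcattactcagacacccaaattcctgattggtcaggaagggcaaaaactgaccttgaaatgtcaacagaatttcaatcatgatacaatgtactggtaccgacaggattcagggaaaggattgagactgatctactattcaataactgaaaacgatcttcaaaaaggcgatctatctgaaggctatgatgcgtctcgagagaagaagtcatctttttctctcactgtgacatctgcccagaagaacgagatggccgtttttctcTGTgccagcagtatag
Trbv2 (ENSMUSG00000076462) was in 0 T barcodes of the library labelled shCtrl, 4 of shMib2 replicate 1 and 9 of shMib2 replicate 2 (0.575% and 0.858% of T barcodes), of which 9 were CD8, 1 CD4, 2 with neither and 1 with both. It was the most frequent Trbv segment of both libraries labelled shMib2, with 4 of 17 assigned barcodes (23.5%) and 9 of 60 (15.0%). Trbv12-2 was in 1, 0 and 9 T barcodes, 8 of the 10 CD8, and Trbv19 in 0, 1 and 6. Trbv13-2, 1 of the NKT cell segments, was in 0, 3 and 6 T barcodes, 4 CD8 and 5 with neither. Trav11 and Trav11d had 0 UMIs anywhere, as did all 34 Trav segments with all windows shared, so that a pairing with them could not be seen. Trbv3 was in 0, 1 and 7, Trbv16 in 0, 2 and 5, Trbv12-1 in 0, 3 and 2, Trbv13-1 and Trbv13-3 each in 0, 1 and 2. Trbv23 was in 1 CD4 barcode of the library labelled shCtrl and nowhere else among T barcodes. Trbv29 and Trbv1, the other NKT cell segments, were in 2 T barcodes each.

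**Figure D3:**
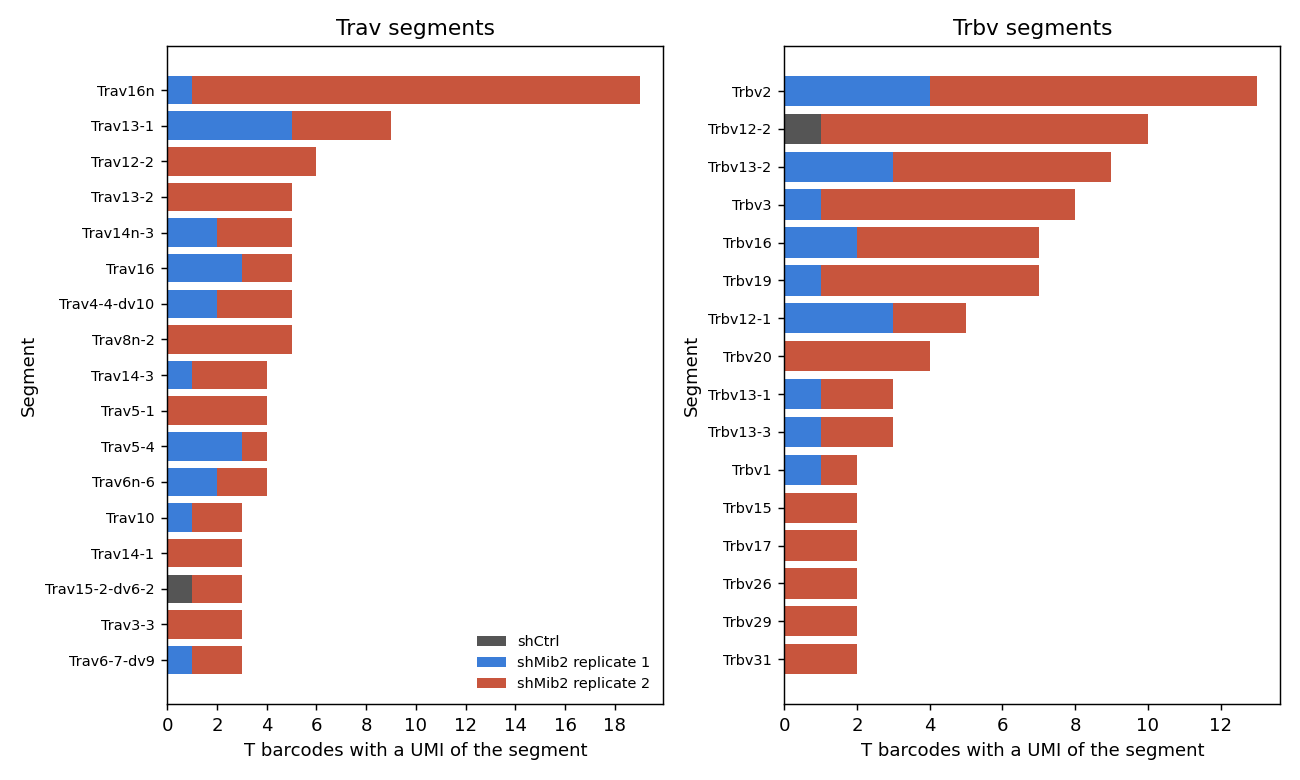
Number of T barcodes with at least 1 UMI of a segment, stacked by library, for Trav segments in at least 3 T barcodes (left) and Trbv segments in at least 2 (right). Trav16n (19 barcodes, 18 of them in shMib2 replicate 2) and Trbv2 (13 barcodes) lead, and the library labelled shCtrl adds 1 barcode to Trav15-2-dv6-2 and 1 to Trbv12-2.

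Pairs and repeats, which the cells of a clone share but other clones may share too, could hardly be counted. A Trav and a Trbv segment were found together in 0, 1 and 6 T barcodes, and no pair was found more than once, so that none reached the 3 barcodes set for naming pairs. Of these 7 barcodes, 5 were CD8 and 2 were with neither. Most combinations of barcode and segment rested on 1 UMI: 4 of 4, 26 of 30 and 87 of 101 for Trav, and 2 of 2, 17 of 17 and 64 of 67 for Trbv. The repeat index, the percent chance that 2 assigned barcodes of a library carry the same segment, was 4.60% and 4.14% for Trav and 9.56% and 6.10% for Trbv in shMib2 replicates 1 and 2. In the library labelled shCtrl no segment was repeated among 4 Trav and 2 Trbv barcodes. A T cell normally makes 1 β chain, and T barcodes with 2 Trbv segments numbered 0, 0 and 4. These 4 were CD8 barcodes of shMib2 replicate 2 with 6891 to 19146 UMIs, against a median of 3827 in CD8 barcodes of that library. Of the 4, 3 held Trbv12-2, of which 2 also held Trbv19, and 1 of these Trav16n. Barcodes with 2 Trav segments numbered 4, all in shMib2 replicate 2, of which 2 held Trav16n. Doublets were not removed, and their part in these barcodes was not tested.

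Trav4-4-dv10 (ENSMUSG00000096096), a segment that can serve both α and δ chains, was the member with the most UMIs and behaved unlike the rest. Its V exon lies at chr14:53683899-53684177 (exon 2, plus strand, GRCm38), and is printed with that of its copy Trav4n-4 at chr14:53302281-53302559, which had 0 UMIs; capitals mark the 8 of 279 bases that differ. Trav4d-4, also at 0 UMIs, has the same V exon as Trav4n-4.
Trav4-4-dv10: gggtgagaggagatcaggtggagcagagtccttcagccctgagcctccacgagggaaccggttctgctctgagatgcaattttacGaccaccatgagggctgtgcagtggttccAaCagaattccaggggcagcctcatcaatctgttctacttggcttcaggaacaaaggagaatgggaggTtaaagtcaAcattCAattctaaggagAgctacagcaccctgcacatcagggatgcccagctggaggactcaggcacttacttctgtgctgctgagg
Trav4n-4: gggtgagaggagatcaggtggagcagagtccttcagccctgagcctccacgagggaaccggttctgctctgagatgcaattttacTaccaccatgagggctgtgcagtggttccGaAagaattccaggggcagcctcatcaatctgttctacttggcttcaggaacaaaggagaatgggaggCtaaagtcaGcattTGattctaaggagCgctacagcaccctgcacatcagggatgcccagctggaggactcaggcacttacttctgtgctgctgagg
Trav4-4-dv10 had 103 UMIs, of which 87 lay outside T barcodes and all of these in barcodes with at least 20 melanoma UMIs. They came from 86 of 19315 such barcodes, 34 of 8345 in the library labelled shCtrl, 24 of 6755 in shMib2 replicate 1 and 28 of 4215 in shMib2 replicate 2, at most 2 UMIs each. Its level there was 0.141, 0.133 and 0.156 CPM, with Poisson intervals of 0.0977 to 0.197, 0.0849 to 0.197 and 0.105 to 0.224, which overlapped. It had 0 UMIs in the 612, 255 and 176 barcodes outside T and melanoma barcodes with at least 2 NK, B or phagocyte genes. These groups were too small to show a level like that of melanoma barcodes, as their upper Poisson limits were at least 3.85, 19.3 and 7.91 CPM in any library. All other segments together had 8 UMIs in 22819 barcodes outside T, against 239 UMIs in T barcodes, and Trbv segments had 89 of their 90 UMIs in T barcodes. In T barcodes Trav4-4-dv10 had 0, 10 and 6 UMIs in 0, 2 and 3 barcodes, or 0, 2.17 and 0.772 CPM. One barcode of shMib2 replicate 1 held 9 of the 10, beside 6 UMIs of Trac and 6 melanoma UMIs among 12727. That barcode was of the class with both CD8 and CD4 genes. The other barcode of that library held 1 UMI of the segment, beside 588 melanoma UMIs and 0 of Trac. In shMib2 replicate 2, 1 barcode held 4 of the 6, beside 24 UMIs of Trbc1 and Trbc2 and 0 of Trac. Trdc had 0 UMIs in all 5. Without Trav4-4-dv10, the mean ratio of T barcodes with a segment was 1.80 ± 0.989 (SD, n = 2).

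**Figure D4:**
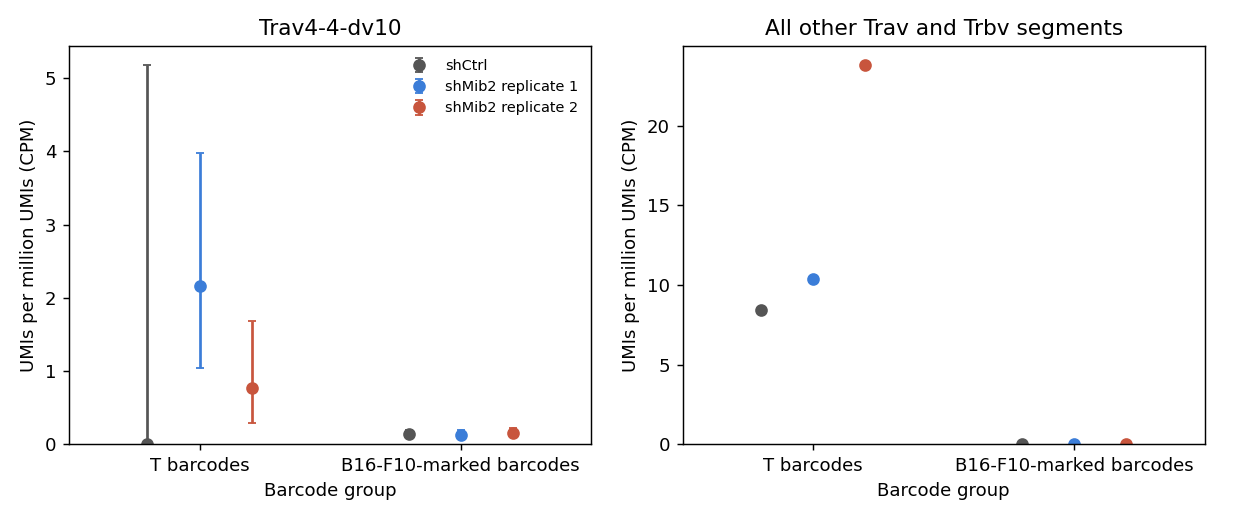
Level of Trav4-4-dv10 (left, with 95% Poisson intervals) and of all other Trav and Trbv segments together (right, without intervals) in CPM, in T barcodes and in barcodes with at least 20 UMIs of melanoma genes, by library; the vertical scales differ. Trav4-4-dv10 stands at 0.133 to 0.156 CPM in melanoma barcodes, whereas the other segments reach 8.43, 10.4 and 23.8 CPM in T barcodes and at most 0.0108 CPM in melanoma barcodes.

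Genes that carry the receptor's signal were followed in the same fits, since a receptor acts through CD3 chains, the kinases Lck and Zap70 and the adaptor Lat. Of 18 signalling genes, 0 passed between the libraries labelled shMib2 and shCtrl, with 5 at an unadjusted p under 0.05, a median log2 difference of 0.67 and 0.04 over all genes. Medians also lay above that of all genes for genes linked to invariant T cells (0.64), NK cell genes (0.80) and γδ T cell genes (1.58). For the 4 melanoma genes the median was -0.35. Between CD8 and CD4 barcodes 1 of 18 passed and was lower in CD8: Cd5, a brake on receptor signals, at 46.1, 51.5 and 42.0 CPM in CD8 and 59.1, 151.9 and 158.0 in CD4 barcodes (log2 -1.57 ± 0.25 SE, edgeR adjusted p = 0.013). In that comparison 0.339% of 7078 genes were higher and 0.565% lower in CD8 barcodes, and the median was -0.17 over the list and -0.00 over all genes. Between barcodes with neither and CD8 barcodes, 3 of 18 were lower and 0 higher (background 0.706% lower and 0.226% higher), with a median of -0.56 and of 0.02 over all genes. They were Lat (45.7, 45.2 and 66.2 CPM against 56.7, 142.5 and 146.1), Cd6 (18.3, 19.6 and 32.2 against 42.5, 57.9 and 65.5) and Zap70 (24.4, 22.8 and 34.8 against 24.8, 84.0 and 73.8), at edgeR adjusted p = 0.025, 0.032 and 0.0496. Leaving out shMib2 replicate 1 (17 tested) or shMib2 replicate 2 (15 tested) left 0 of the list called there, and without shMib2 replicate 2 Cd5 no longer passed between CD8 and CD4 barcodes. Without barcodes of at least 20 melanoma UMIs, Zap70 and Lat stayed lower at log2 -0.76 and -0.75 (from -1.30 and -1.24), and Cd6 did not pass (-0.75, from -1.27; edgeR adjusted p = 0.066). Zap70 also did not pass by DESeq2 (adjusted p = 0.11). Between barcodes with neither and CD4 barcodes, 5 of 18 were lower and 0 higher (background 1.48% lower and 0.551% higher): Cd5, Lat, Cd6, Cd2 and Zap70, at log2 -2.55 ± 0.26, -1.70 ± 0.25, -1.80 ± 0.28, -1.51 ± 0.26 and -1.50 ± 0.32 (SE; median -0.70, and 0.02 over all genes). Without shMib2 replicate 2, 0 passed. Without barcodes of at least 20 melanoma UMIs, Cd5, Lat and Cd6 were lower (log2 -1.76, -0.94 and -1.07), and Ptprc and Ptpn22, a pair of phosphatases of the pathway, were higher (0.75 and 1.09). Such melanoma barcodes were 7, 63 and 40 of the barcodes with neither and 2, 3 and 4 of the CD4 barcodes. The shares of all genes called without them are not given here, against CD8 or CD4 barcodes. The calls made without them are thus not shown to be particular to the list.

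Of 7 NK cell genes, 4 were higher in barcodes with neither than in CD8 barcodes (Klrb1c, Klra4, Klra8 and Ncr1), 6 were higher than in CD4 barcodes, and 0 passed between CD8 and CD4 barcodes. Over all 7078 genes tested, 0.226% were higher in barcodes with neither than in CD8 barcodes and 0.551% than in CD4 barcodes. Prf1, which encodes perforin of killer cells, had the opposite sign against CD8 barcodes and did not pass (33.5, 19.95 and 70.6 CPM against 17.7, 128 and 131; log2 -1.44, edgeR adjusted p = 0.18), nor did Klre1 (1.05, adjusted p = 0.15) and Eomes (0.08, adjusted p = 0.99). Ncr1 was at 27.4, 21.4 and 65.3 CPM in barcodes with neither, against 0, 2.82 and 2.55 in CD8 barcodes. Trdc was higher in barcodes with neither than in CD8 barcodes (9.14, 29.1 and 77.0 CPM against 3.54, 7.06 and 3.97; edgeR adjusted p = 0.0051), while the other γδ T cell gene tested, Tcrg-C2, was at 0, 6.65 and 16.7 CPM against 7.09, 30.3 and 26.1 and did not pass (log2 -1.33, edgeR adjusted p = 0.31). V segments of γ and δ chains had 5, 14 and 102 UMIs in 4, 14 and 82 T barcodes. Without NK marked barcodes, 2 of 17 signalling genes were lower in barcodes with neither than in CD8 barcodes and 6 of 17 than in CD4 barcodes. The shares of all genes called without these barcodes are not given here, so that the counts are not shown to be particular to the list.

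Genes linked to invariant T cells gave no common direction between classes. Of 10 listed, 6 were tested, and Zbtb16, the transcription factor of NKT and MAIT cells, was not among them, with a UMI in 0, 2 and 11 T barcodes that lacked Trav16n and in 0 of the 18 that held it in shMib2 replicate 2. In CD8 against CD4 barcodes, 2 were higher (background 0.339% higher), Cd160 (42.5, 45.2 and 46.0 against 0, 0 and 1.88 CPM) and Cxcr6 (85.0, 111.5 and 129.9 against 9.84, 22.2 and 35.7), a chemokine receptor of resident T cells. Neither passed there without shMib2 replicate 2. In barcodes with neither against CD8 barcodes, Klrb1c, an NK cell receptor that NKT cells also carry, was higher and Cxcr6 lower (background 0.226% higher and 0.706% lower). Between barcodes with neither and CD4 barcodes, Cd160 and Klrb1c were higher (background 0.551% higher). Without shMib2 replicate 2, Cd160 no longer passed there, and Klrb1c was not tested without either library labelled shMib2. Klrb1c was also not tested without NK marked barcodes. In both comparisons it was called in the 6 of 10 other settings that tested it. Of the 9 tested between the libraries labelled shMib2 and shCtrl, 0 passed and 2 had an unadjusted p under 0.05.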

How the data were processed

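Tumors were dissociated, red cells lysed and single cells run on a droplet system, 1 library per group of 3 pooled mice. Per the labels, the authors used Cell Ranger 4.0.0 with mm10. The deposited values are raw UMI counts per gene and barcode, without normalization, for 243926188, 190904274 and 203298455 UMIs (shCtrl, shMib2 replicates 1 and 2), of which T barcodes held 712011, 4616777 and 7770644.

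Members, classes and lists were chosen with earlier results of these data known. Doublets were not removed. A barcode was assigned at a locus to the segment with the most UMIs, ties unassigned, and named segments are the 10 per locus with the largest mean share over the libraries, the invariant T cell segments and any segment called; Trav12-2, Trav13-2 and the Trav4 and Trav16 copies were chosen after their values were seen. Shares carry Wilson intervals, levels exact Poisson intervals and ratios of UMIs Clopper-Pearson intervals, at 95%. The limit of a count of 0 is 3 counts. Thinning drew 1000 UMIs per barcode without replacement (seed 7).

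Sums per library, or per library and class, were tested over all genes with edgeR 4.0.16 (R 4.3.3): filterByExpr, TMM and the quasi-likelihood test, at an adjusted p of 0.05. With 1 residual degree of freedom between labels, the single shCtrl library is taken to vary as the others do. Per the labels each library is its own pool of mice and each shMib2 library its own shRNA. Between labels, p-values measure the spread between these libraries, of whatever source, with dispersion drawn in part from all genes. Between classes, with the library as a block, they measure how far the difference between classes varied from library to library. SEs were derived from the fold change and its F statistic. Alternatives were DESeq2 1.42.0 and its size factors, no count filter, other cell and T gates, no library block and each library left out. All 163 segments matched GENCODE vM21 by gene ID. Python 3.11.15, numpy 2.4.6, scipy 1.17.1, pandas 2.3.3 and matplotlib 3.10.9 were used.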

Additional observations from a re-analysis of the deposited data

How the results depend on the processing

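Of 48 alternatives of the 4 tests on segments, 38 left no segment above the count filter and could call none. The other 10 tested 1 to 69 segments and called 0, with at most 1 at an unadjusted p under 0.05. The ratio of T barcodes with a segment (1.85) moved by less than its SD in the 10 other settings that gave a value, from 1.64 up to 2.204, and was 1.15 and 2.54 with shMib2 replicate 2 or 1 left out. At 2 or more UMIs of a segment the library labelled shCtrl had none and the ratio could not be formed. The share of Trav16n in shMib2 replicate 2 stayed within its interval in 6 of 8 settings and was 0.778% when thinned and 0.191% at 2 or more UMIs. The mean repeat index of Trav in the libraries labelled shMib2 ranged from 4.23% to 8.88% and that of Trbv from 6.36% to 8.47%. Leaving out Trav4-4-dv10 and the alternatives of the gene lists were chosen after the data were seen. Without the library block, no segment passed the count filter (0 tested, 0 called), and signalling genes called fell from 3 to 0 between barcodes with neither and CD8 barcodes and from 5 to 2 against CD4 barcodes; the cause was not tested. With at least 3 T cell genes per barcode, Cd28, Ptprc and Ptpn22 were called as higher in the libraries labelled shMib2 than in shCtrl (log2 1.29, 1.09 and 1.43), against 0 signalling genes in the 8 other settings. The shares of all genes called in these settings are not given here, so that such counts are not shown to be particular to the list.

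No paired analysis was possible because the label shCtrl has 1 library, and leaving out a library labelled shMib2 left 1 against 1 and no test. With 104 T barcodes and 6 segment UMIs in the library labelled shCtrl, depth limits what can be said of any single segment there, and usage in that library cannot be ranked.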
